A study of Mus musculus with 15 samples.

Results

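The comparison described here sets one ribosomal protein knockdown against another: E14 mouse embryonic stem cells given an siRNA against Rpl18 (siRpl18) and the same cells given an siRNA against Rpl14 (siRpl14). It covers every gene that reached 1 FPKM (fragments per kilobase of transcript, scaled to the mapped fragments of a library) in 2 or more of the 6 libraries of both groups, which was 11954 of the 24819 genes in the deposited tables. The cells grew on gelatin in serum with leukemia inhibitory factor (LIF), and every group received siRNA by lipid transfection, including a non-targeting siRNA (siNT) and siRNAs against Rpl11 and Rpl23 that serve here as reference levels. The sample titles give 48 h, whereas the labels' treatment protocol gives a harvest after 3 days, and which applies was not settled. Each group had 3 libraries. Libraries 1 and 2 of all 5 groups stand in one table of FPKM values and the third library of each group stands in another that was normalized separately, so tests used only the first table and the third libraries give the size and direction of a difference within their own table. Nothing in the labels says that each library came from its own culture, and the p-values therefore reflect a spread among libraries that may be technical.

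Rpl14 and Rpl18 encode proteins of the large (60S) ribosomal subunit. When the supply of 1 such protein falls short, assembly of the subunit stalls, and the free 5S ribonucleoprotein particle, which holds Rpl5 and Rpl11, can bind Mdm2. Mdm2 is the ubiquitin ligase that keeps the transcription factor p53 low, so p53 then builds up and switches on its target genes. Both knockdowns therefore act on the same subunit and can feed the same pathway. Comparing them directly asks how far the transcriptome depends on which 60S protein was depleted, beyond what the knockdowns have in common. The siRNA and the depleted protein change together here. Other effects of an siRNA therefore cannot be told apart from those of the protein it depletes, for any gene below.

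Depth relative to the first siNT library of each table was estimated from the most common ratio of low FPKM values. The estimate was 0.841 to 0.941 in libraries 1 and 2 of the 2 groups and 1.07 to 1.14 in the third libraries. It rests on few genes, 37 of 942 low ones in the third siRpl18 library, and the scaling of the deposited values enters it. FPKM holds no read total, so the absolute depth is unknown and no counting interval is given. Across genes the log-scale values of libraries 1 and 2 correlated with r of 0.994 in siRpl14 and 0.995 in siRpl18. The stem cell markers were present, with Pou5f1, the central pluripotency factor, between 737 and 1083 FPKM in the 6 libraries. Of 14 markers of fibroblasts and feeder cells, 11, Col1a1 and Col1a2 among them, stayed below 1 FPKM in all 6 libraries. The others were Mmp2 (11.8 to 18.6 FPKM), Thy1 (6.84 to 10.5 FPKM) and Fbn1 (1.19 to 1.65 FPKM). The fibroblast and feeder list summed to 26.2 to 29.8 FPKM in siRpl14 and 25.2 to 29.2 FPKM in siRpl18, so the 2 groups overlapped. Most of that sum was Mmp2 and Thy1.

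The targeted genes matched the labels. Rpl18 stood at 1842, 2001 and 3101 FPKM in siRpl14 libraries 1, 2 and 3 and at 614, 670.4 and 905 FPKM in siRpl18. Every siRpl18 library lay far below every siRpl14 library, with a log2 difference of -1.58 ± 0.08 (SE, limma adjusted p = 2.31e-05) in libraries 1 and 2 and -1.78 in the third. Rpl14 stood at 605, 629 and 698 FPKM in siRpl14 and at 1159, 1230 and 1604 FPKM in siRpl18, a difference of 0.95 ± 0.05 (SE, limma adjusted p = 2.31e-05) and of 1.20 in the third libraries. The knockdowns differed in depth: siRpl18 left 32.6% of the siNT mean of its target in libraries 1 and 2 and 31.2% in the third, whereas siRpl14 left 51.6% and 38.5% of its own. Each siRNA left the other target near siNT, with Rpl18 at 97.7% of siNT in siRpl14 and Rpl14 at 99.9% in siRpl18. The part that the unequal remaining levels have in the differences below was not tested.

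Rpl14-ps1, a pseudogene copy of Rpl14, moved with its parent gene. It read 15.4, 20.03 and 8.31 FPKM in siRpl14 and 29.6, 33.6 and 22.7 FPKM in siRpl18, where siNT had 29.8, 30.996 and 28.6, and the difference was 0.81 ± 0.10 (SE, limma adjusted p = 0.00178). Reads of a near-identical copy can be shared with the parent, so its level is uncertain. The other targets of the study did not pass the test: Rpl11 differed by 0.04 (95% interval -0.14 to 0.23) and Rpl23 by 0.03 (-0.14 to 0.19). Of the 3 genes on either side of Rpl18 and of Rpl14 in the reference annotation, 9 of 12 were found by symbol in the deposited table and 5 were tested. Car11, a carbonic anhydrase-related gene of about 1 FPKM, is the furthest of the 3 genes on its side of Rpl18. It passed narrowly at -0.32 (limma adjusted p = 0.04996), and that call was lost whenever 1 library was left out. Dbp, Sphk2 and Sult2b1 near Rpl18 and Eif1b near Rpl14 differed by -0.14, 0.01, -0.27 and -0.07 and did not pass.

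Across all genes the 2 knockdowns differed in many genes, mostly by a little. limma's moderated test on log2(FPKM + 1), with Benjamini-Hochberg adjustment over the 11954 genes and a threshold of 0.05, called 734 genes higher in siRpl18 (6.14% of those tested) and 1039 lower (8.69%), 1773 or 14.8% in all. Only 9 of them (0.0753% of the genes tested) differed by 2-fold or more on that scale, 5 higher and 4 lower, and 53 higher and 61 lower differed by 1.5-fold or more. The median absolute log2 difference was 0.11 over all genes tested and 0.30 over the called ones. For 10593 genes, 88.6% of those tested, the 95% interval of the difference lay within 0.5 log2 units of 0 on either side. The scale, log2(FPKM + 1), draws differences of low genes towards 0, so this share depends on it in part. The balance of directions depended on the scaling of the libraries: 41.4% of the called genes were higher as deposited, 51.0% after quantile normalization and 58.6% after median-ratio scaling. Leaving out 1 of the 4 libraries at a time gave 282 to 398 genes higher and 307 to 463 lower, and 1 of the 1773 called genes changed sign under at least 1 of the alternatives tried. That gene, Magohb, a copy of the exon junction gene Magoh, is named after its values were seen and went from -0.38 to 0.03 in the fit of all 15 libraries (adjusted p = 0.938). Of the 178 called genes that the naming rule picked, 80 kept their call and direction under every alternative. In the fit of all 15 libraries 52 of the 178 lost the call, and the text below marks this for only some of them. Each gene list below is described by its counts of called genes. The first value in brackets after a count is the share of the list that was called, in either direction, to be read against the 14.8% of all genes tested. In many lists where leaving out 1 library at a time moved a count by more than 1.5 times, the range of the counts over those 4 fits follows. Fewer genes were called over all genes in those fits too, so such ranges are not to be read against 14.8%. For a gene whose call was lost on leaving out at least 1 library, the lowest and highest difference over those 4 fits follow its value as a range, or the libraries are named.

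**Figure D1:**
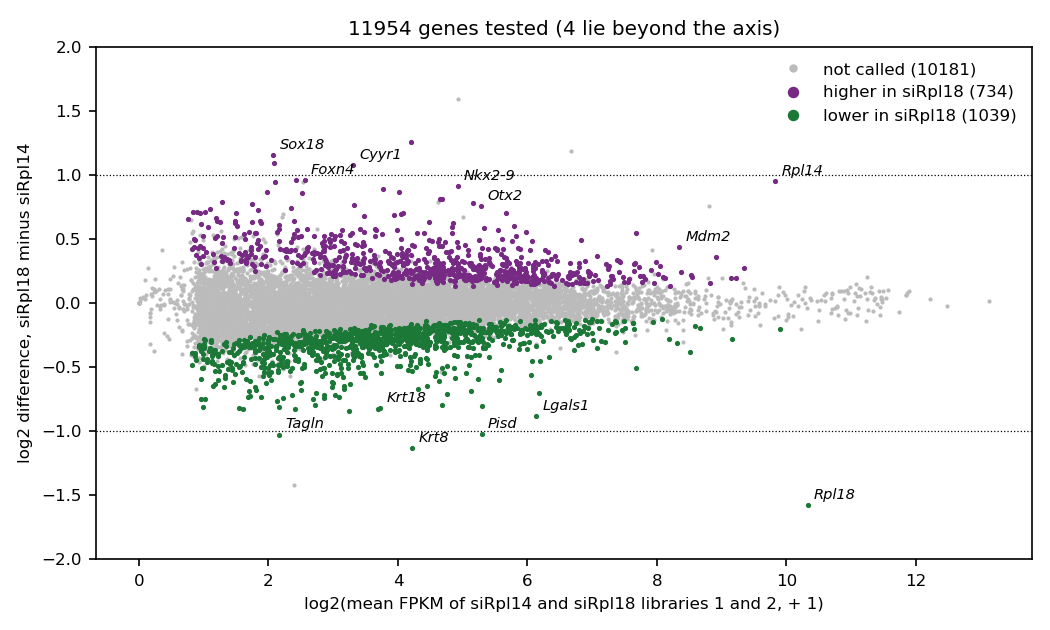
Each point is 1 of 11954 genes, with log2(mean FPKM + 1) over libraries 1 and 2 of siRpl14 and siRpl18 on the horizontal axis and the log2 difference, siRpl18 minus siRpl14, on the vertical axis. Purple points are the 734 genes called higher, green points the 1039 called lower and grey points the genes not called, and the dotted lines mark 2-fold. Rpl18 and Rpl14 stand apart at high level, and most called genes lie within 0.5 of 0.

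The third libraries, which no test used, gave the same sign for 632 of the 734 genes called higher (86.1%) and for 951 of the 1039 called lower (91.5%). Among genes not called, 64.7% had the same sign. Over the called genes the differences in the first table and in the third libraries correlated with Pearson's r of 0.753, and over all genes tested with r of 0.413 and Spearman's rho of 0.482. These are correlations across genes, which are not independent replicates. In the third libraries 38.6% of all genes tested were higher in siRpl18, against 42.0% in the first table, so a sign match for lower genes is the more frequent of the 2 by default. Over the 6 libraries as deposited, all 3 libraries of a group lay above all 3 of the other for 2248 genes (18.8% of those tested), and 338 of the genes called higher and 592 of those called lower were among them. That count sets separately normalized tables side by side.

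**Figure D2:**
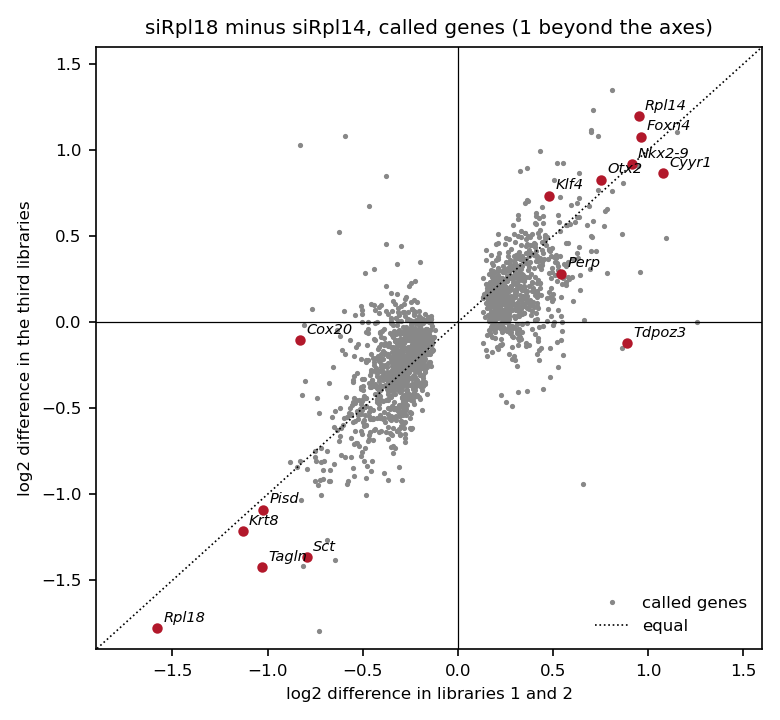
Each point is a gene called in libraries 1 and 2, with its log2 difference (siRpl18 minus siRpl14) there on the horizontal axis and in the third libraries on the vertical axis, and the dotted line marks equal values. Named genes are red. Rpl18, Krt8, Tagln and Pisd lie far down on both axes and Rpl14, Foxn4, Nkx2-9 and Cyyr1 far up, whereas Tdpoz3 and Cox20 are close to 0 in the third libraries.

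Leading genes were chosen to have a mean of 5 FPKM or more in siRpl18 and the same sign in the third libraries. A matching sign there therefore follows from the choice. All 3 libraries of a group lay above all 3 of the other in 18.8% of all genes tested. Apart from Rpl14 itself, the largest gains were in Cyyr1, which encodes a cysteine- and tyrosine-rich membrane protein, and in the transcription factor genes Foxn4 and Nkx2-9. Cyyr1 read 5.53, 5.197 and 6.92 FPKM in siRpl14 and 12.2, 12.6 and 13.5 FPKM in siRpl18, with siNT at 0.586, 0.8899 and 0.554. Its 3 siRpl18 libraries all lay above its 3 siRpl14 libraries, and the log2 difference was 1.08 ± 0.09 (SE, limma adjusted p = 0.000478), with 0.87 in the third libraries. Foxn4, a forkhead factor of retinal and spinal cord progenitors, read 3.13, 2.87 and 3.30003 FPKM in siRpl14 and 6.77, 6.798 and 8.08 FPKM in siRpl18. The groups did not overlap, and the difference was 0.96 ± 0.08 (SE, limma adjusted p = 0.000445). Nkx2-9, a homeobox gene of the ventral neural tube, read 20.4, 19.7 and 27.2 FPKM in siRpl14 and 37.3, 39.98 and 52.3 in siRpl18, where siNT had no more than 1.91 FPKM. Both knockdowns were thus above siNT and siRpl18 was the higher, by 0.91 ± 0.14 (SE, limma adjusted p = 0.00376) and 0.92 in the third libraries. Otx2, a homeobox factor of the epiblast and forebrain, read 27.4, 28.6 and 23.1 FPKM in siRpl14 and 47.3, 48.4 and 41.9 FPKM in siRpl18, a difference of 0.76 ± 0.05 (SE, limma adjusted p = 8.51e-05). Its siNT level was 9.03, 8.34 and 13.7 FPKM and its mean in siRpl11 was 78.3 FPKM, above either group.

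Other genes in the leading 15 higher in siRpl18 were of several kinds. Kbtbd11 read 17.2, 17.3 and 22.7 FPKM in siRpl14 and 31.6, 30.4 and 39.2 FPKM in siRpl18, Apobec1, the cytidine deaminase that edits apolipoprotein B mRNA, 6.88, 5.94 and 6.39 and 11.4, 11.8 and 9.88, and Cltb, the clathrin light chain B, 37.3, 38.2 and 59.6 and 58.8, 65.2 and 84.9. In each of the 3 genes every siRpl18 library was above every siRpl14 library, with differences of 0.81, 0.77 and 0.70. Napsa, an aspartic protease, differed by 0.69 ± 0.07 (SE, limma adjusted p = 0.000791) and Dmrtb1, a DM-domain factor of germ cells, by 0.69 ± 0.08 (SE, limma adjusted p = 0.00137). The remaining leading genes are taken up with their groups (Rpl14 and its copy above, Trp73 and Lef1 below) or are histone genes. Hist1h1c, a linker histone, read 24.01, 26.5 and 38.03 FPKM in siRpl14 and 44.4, 43.9 and 46.7 in siRpl18 (0.78 ± 0.09, SE, limma adjusted p = 0.00137). Hist1h4a differed by 0.74, but its call was lost without library 1 of siRpl18 (0.52), without library 2 of siRpl18 (0.96) or without library 2 of siRpl14 (0.40). Histone mRNAs mostly lack a poly(A) tail, and the libraries were made from polyadenylated RNA, per the labels' protocols.

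Of the 5 genes higher by 2-fold or more, Cyyr1 alone met the rule for leading genes, and the other 4 are named because they were seen to pass that size. Sox18, an endothelial SOX factor, read 1.43, 1.81 and 1.75 FPKM in siRpl14 and 4.41, 5.23 and 4.92 FPKM in siRpl18, with a difference of 1.15 ± 0.14 (SE, limma adjusted p = 0.00189) and of 1.10 in the third libraries. Pcdh8, a protocadherin, read 1.72, 1.704 and 1.505 and 4.75, 4.82 and 2.51 FPKM (1.09 ± 0.07, SE, limma adjusted p = 0.000119). Its difference in the third libraries, 0.49, was smaller. The other pair, Rprl3 and Snora78, are small RNAs that a poly(A) protocol captures poorly. Rprl3 read 9.43 and 9.87 FPKM in siRpl14 and 30.8 and 19.5 FPKM in siRpl18, and is listed at 0 in the third libraries of all 5 groups. Snora78 is listed at 0 in siRpl14 and siNT and at 8.33 and 31.7 FPKM in siRpl18 libraries 1 and 2, and again at 0 in the third libraries, so no fold is given.

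The genes furthest down in siRpl18 after Rpl18 itself were of several kinds, with Krt8, Tagln and Pisd first among the leading genes. These too were chosen to have the same sign in the third libraries. Krt8 and Krt18, the keratin pair of simple epithelia and trophectoderm, read 24.2, 25.02 and 35.2 and 15.2, 16.6 and 20.6 FPKM in siRpl14 and 10.1, 11.3 and 14.6 and 7.899, 9.27 and 9.59 FPKM in siRpl18. Every siRpl18 library lay below every siRpl14 library and above every siNT library (4.402, 5.46 and 5.603 FPKM for Krt8). The differences were -1.13 ± 0.11 (SE, limma adjusted p = 0.000756) for Krt8 and -0.82 ± 0.09 (SE, limma adjusted p = 0.00103) for Krt18, and -1.21 and -1.03 in the third libraries. Tagln (transgelin, an actin-binding protein) read 4.96, 5.09 and 6.09 FPKM in siRpl14 and 2.05, 1.86 and 1.64 FPKM in siRpl18, a difference of -1.03 ± 0.08 (SE, limma adjusted p = 0.000298). Anxa3, a membrane-binding annexin, read 10.7, 11.6 and 11.04 and 5.34, 6.20004 and 5.71 FPKM (-0.85 ± 0.11, SE, limma adjusted p = 0.00252), with siNT at 1.38, 0.926 and 2.17. Sct, which encodes the hormone secretin, read 29.6, 33.5 and 45.9 and 16.1, 19.4 and 17.2 FPKM (-0.79 ± 0.12, SE, limma adjusted p = 0.00424), with siNT between 0.829 and 2.29. For these genes siRpl18 thus stood between siNT and siRpl14. Ms4a10, a membrane protein gene that read at most 0.2902 FPKM in siNT, differed in the same way (-0.73), with the call lost at a pseudocount of 0.1 (-0.82, adjusted p = 0.0818).

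Pisd and Acap1 showed another pattern, in which siRpl14 was close to siNT and siRpl18 was below it. Pisd, the phosphatidylserine decarboxylase that makes phosphatidylethanolamine in mitochondria, read 49.4, 51.4 and 41.998 FPKM in siNT, 50.9, 52.1 and 44.3 FPKM in siRpl14 and 24.8, 24.8 and 20.3 FPKM in siRpl18. Its difference of -1.02 ± 0.04 (SE, limma adjusted p = 4.13e-06) carried the smallest adjusted p of any gene tested, and the third libraries gave -1.09. Its means in siRpl11 and siRpl23 were 53.03 and 50.3 FPKM, so of the 5 groups only siRpl18 was low. Pisd-ps3, a copy of Pisd whose reads may be shared with it, read 50.01, 46.8 and 30.5 FPKM in siRpl14 and 20.96, 35.6 and 23.9 FPKM in siRpl18 (-0.80 ± 0.18, SE, limma adjusted p = 0.0181), and lost its call without library 1 (-0.75) or library 2 of siRpl14 (-0.85). Acap1, a GTPase-activating protein for Arf6, read 8.09, 8.62 and 7.09 FPKM in siNT, 7.61, 7.02 and 7.14 in siRpl14 and 3.98, 3.62 and 3.50001 in siRpl18 (-0.79 ± 0.07, SE, limma adjusted p = 0.000704). Its siRpl11 and siRpl23 means were 5.22 and 5.601 FPKM, between the other groups. Cox20, an assembly factor of cytochrome c oxidase, differed by -0.83 in libraries 1 and 2 but by -0.10 in the third, and lost its call whenever 1 library was left out.

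**Figure D3:**
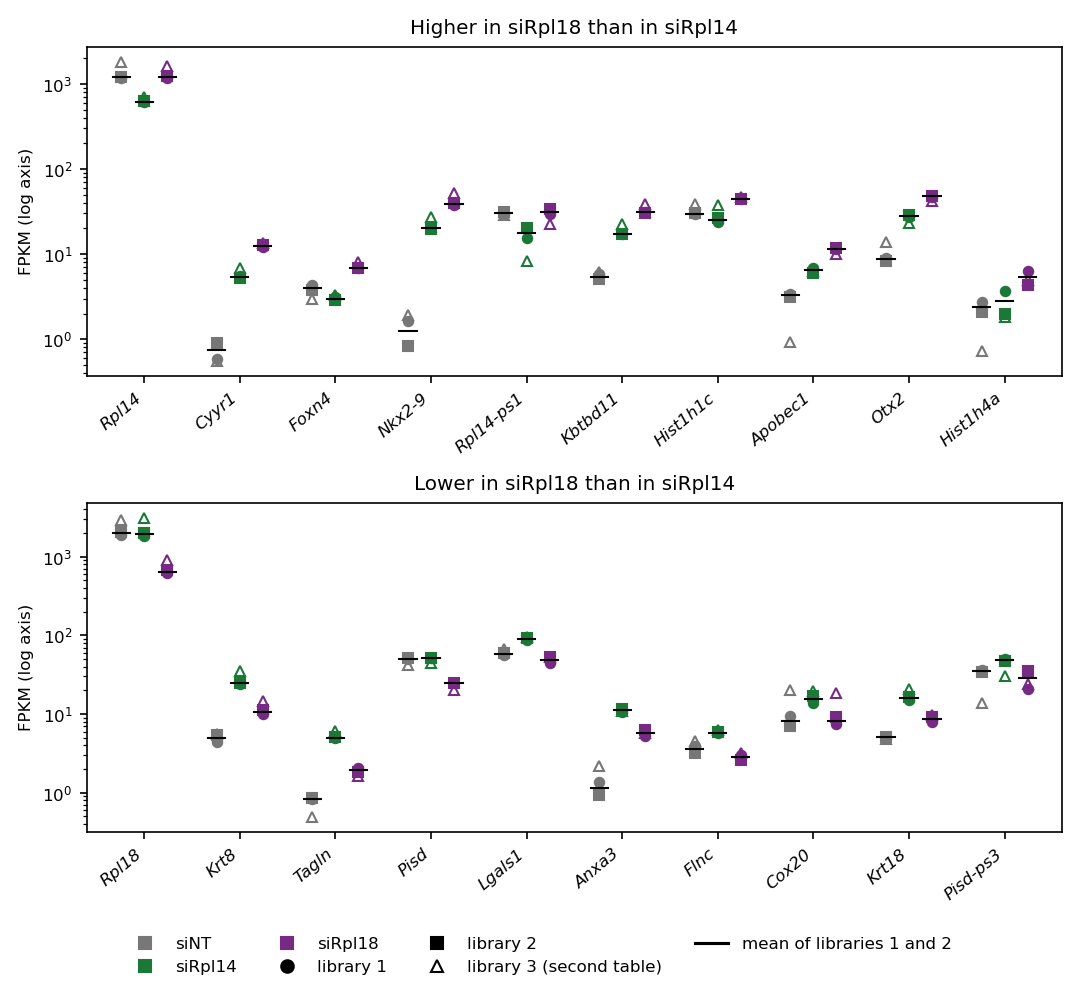
FPKM on a log axis for the 10 leading genes higher in siRpl18 (top) and the 10 leading genes lower in siRpl18 (bottom), with siNT in grey, siRpl14 in green and siRpl18 in purple. Circles and squares are libraries 1 and 2, triangles the third libraries, normalized separately, and the bars the means of libraries 1 and 2. Krt8, Tagln, Anxa3 and Krt18 in siRpl18 lie between siNT and siRpl14, whereas Pisd in siRpl18 lies below both.

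A smaller set of genes stood on opposite sides of siNT in libraries 1 and 2, above it in one knockdown and below it in the other. In 9 of the 12 named here the third libraries had that arrangement too, and in Picalm, Slc39a1 and Foxn4 they did not. That count rests on the sign in 1 library per group, whatever the margin. The margin was small in Hist1h1c (38.3 FPKM in siNT and 38.03 in siRpl14) and larger in Lgals1, given below. The share of all genes tested with this arrangement is not given, so the count has no background. The 2 differences from siNT share the siNT libraries and so are not independent of each other. Lgals1, the secreted lectin galectin-1, read 55.8, 60.1 and 67.997 FPKM in siNT, 87.2, 93.1 and 94.8 FPKM in siRpl14 and 44.4, 52.8 and 53.7 FPKM in siRpl18. Its log2 difference from siNT was 0.63 in siRpl14 and -0.25 in siRpl18, and that between the knockdowns was -0.88 ± 0.09 (SE, limma adjusted p = 0.000756). Flnc, the actin crosslinker filamin C, read 3.88, 3.21 and 4.499 FPKM in siNT, 5.68, 5.93 and 6.29 in siRpl14 and 3.02, 2.65 and 3.17 in siRpl18, that is 0.59 and -0.24 from siNT. Cdx1, a homeobox gene of the posterior body axis, differed from siNT by 0.47 in siRpl14 and by -0.28 in siRpl18. The receptor gene Gprc5a, the zinc importer Slc39a1, the calcium-binding protein gene S100a11, Glipr2 and the ATP synthase-associated gene Usmg5 had the same arrangement, with siRpl18 below siRpl14 by -0.63, -0.61, -0.56, -0.54 and -0.51. The arrangement was turned round in Picalm, the clathrin assembly adaptor. It read 47.4, 48.5 and 62.3 FPKM in siNT, 38.7, 40.1 and 43.2 FPKM in siRpl14 and 56.2, 55.8 and 58.8 FPKM in siRpl18, and the difference between the knockdowns was 0.50 ± 0.04 (SE, limma adjusted p = 0.000298). Nr1d2, the circadian repressor Rev-erb beta, read 6.67, 6.52 and 10.5, 5.33, 5.44 and 6.26 and 8.78, 7.78 and 11.04 FPKM in siNT, siRpl14 and siRpl18 (0.54 ± 0.07, SE, limma adjusted p = 0.00189). Foxn4 and Hist1h1c, described above, were the other genes of this kind.

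Most genes listed for the p53 pathway stood above siNT in both knockdowns. Of the 10 tested members of the list of p53 and its regulators, 9 passed the test as higher than siNT in each knockdown. The same held for 26 of 28 death and membrane targets in siRpl14 and 25 in siRpl18, and for 16 and 15 of 23 cell-cycle and repair targets. Over all genes tested, 4061 passed as higher in siRpl14 and 4017 in siRpl18. The regulators had a median log2 difference from siNT of 0.84 in siRpl14 and of 1.02 in siRpl18. Mdm2, both the inhibitor of p53 and a p53 target, read 277, 274 and 287 FPKM in siRpl14 and 375, 370.1 and 337 FPKM in siRpl18, with siNT at 41.97, 41.2 and 36.3. The groups did not overlap, and the difference was 0.43 ± 0.04 (SE, limma adjusted p = 0.000827), with 0.23 in the third libraries. Trp53 itself read 306, 302 and 369 FPKM in siRpl14 and 359, 359 and 412 FPKM in siRpl18 (0.24 ± 0.04, SE, limma adjusted p = 0.00639). Trp53inp1, a p53-induced nuclear protein, differed by 0.29, a call lost when all 15 libraries were fitted together (adjusted p = 0.211). These 3 of the 10 members passed (30.0%), all of them higher in siRpl18. The other 7 did not: the ubiquitin ligase Rchy1 differed by 0.13, the Mdm2 partner Mdm4 by 0.19, the deubiquitinase Usp7 by -0.01 and Hexim1 by 0.05. The p53 phosphatase Ppm1d differed by 0.13, the Mdm2 inhibitor gene Cdkn2a by 0.14 and cyclin G1 (Ccng1), itself a p53 target, by -0.05.

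Of 23 tested targets that act on the cell cycle or DNA repair, 4 were higher and none was lower (17.4%), a share near that of all genes, with a list median of 0.07. The count was 7 after median-ratio scaling and 2 in the fit of all 15 libraries. Gadd45a, a stress-induced partner of PCNA, read 43.8, 41.7 and 45.98 FPKM in siRpl14 and 64.7, 66.4 and 59.7 FPKM in siRpl18, where siNT had 37.2, 36.5 and 36.3 (0.61 ± 0.06, SE, limma adjusted p = 0.000704). Against siNT it differed by 0.21 in siRpl14 and 0.81 in siRpl18. Gadd45g read 14.8, 15.02 and 21.8 and 22.6, 21.9 and 21.8 FPKM (0.55 ± 0.06, SE, limma adjusted p = 0.00137), but the third libraries differed by only 0.0011. The other pair, Gtse1 and Plk2, differed by 0.27 and 0.18 (range 0.16 to 0.20), and both lost the call in the fit of all 15 libraries (adjusted p = 0.15 and 0.668). Plk2 also lost it whenever 1 library was left out.

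Of 28 tested p53 targets that promote cell death or sit in the membrane, 12 were higher and 2 lower (50%), with a list median of 0.21 against -0.03 over all genes tested. Leaving out 1 library at a time gave 8 to 9 higher and 1 to 2 lower, the fit of all 15 libraries gave 7 and 1, and the list median in the third libraries was 0.03. Perp, a tetraspan membrane protein of p53-dependent apoptosis, read 163, 169 and 196 FPKM in siRpl14 and 226, 259 and 238 FPKM in siRpl18, against 9.03, 9.53 and 6.63 in siNT. Its groups did not overlap, and the difference was 0.54 ± 0.06 (SE, limma adjusted p = 0.00134). Trp73, which encodes the p53 relative p73, read 12.1, 11.7 and 13.03 and 20.4, 19.5 and 17.7 FPKM (0.70 ± 0.09, SE, limma adjusted p = 0.00171). Bbc3, the BH3-only protein Puma, read 34.01, 30.5 and 47.9 FPKM in siRpl14 and 41.5, 43.3 and 58.4 in siRpl18, which overlap across tables but not within them. Its difference was 0.39 ± 0.05 (SE, limma adjusted p = 0.00284), and its call was lost in the fit of all 15 libraries (adjusted p = 0.229). Cd80, a costimulatory membrane ligand, differed by 0.48, and its call was lost without library 1 (0.43) or 2 of siRpl18 (0.52) or without library 2 of siRpl14 (0.36). Lower in siRpl18 was Steap3, a metalloreductase, at 7.17, 7.61 and 5.57 FPKM in siRpl14 and 5.01, 5.49 and 5.58 in siRpl18 (-0.42 ± 0.07, SE, limma adjusted p = 0.00496), with 0.0025 in the third libraries and the call lost in the fit of all 15 libraries (adjusted p = 0.202). The other lower member was Phlda2 (-0.24, range -0.29 to -0.18), an imprinted gene.

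Genes of the G2 phase and mitosis were called in 1 direction. Of 42 tested members, 20 (47.6%, against 14.8% of all genes tested) were higher in siRpl18 and none was lower, with 25 higher and none lower at an unadjusted p under 0.05. The list median was 0.15 and 38 members lay above 0, and in the third libraries the median was 0.14. The list median was 0.12 without library 2 of siRpl18 or without library 1 of siRpl14. It was 0.17 without library 2 of siRpl14 and 0.18 without library 1 of siRpl18. Fewer members were called in each of these fits, as over all genes tested. When only the 4 libraries of the 2 groups were fitted, 7 members were called higher, and 8.21% of all genes tested were called in either direction. No member was called lower in any of these. Against siNT the medians of the list in libraries 1 and 2 were -0.32 in siRpl14 and -0.18 in siRpl18, so siRpl18 stood nearer to siNT there. In the third libraries members differed in this, with siRpl14 nearer to siNT in Hmmr and siRpl18 nearer in Plk1.

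Hmmr, a spindle-associated hyaluronan receptor, read 50.1, 52.4 and 49.2 FPKM in siRpl14 and 64.3, 67.7 and 63.7 FPKM in siRpl18, where siNT had 65.8, 66.9 and 50.2. All siRpl18 libraries lay above all siRpl14 libraries, and the difference was 0.36 ± 0.04 (SE, limma adjusted p = 0.00151), with 0.37 in the third libraries. Ube2c, the ubiquitin-conjugating enzyme of the anaphase-promoting complex, read 233, 215 and 237 FPKM in siRpl14 and 279.6, 280.3 and 315 FPKM in siRpl18, with siNT at 222, 223 and 223. In this gene siRpl14 was close to siNT and siRpl18 above it (0.32 ± 0.05, SE, limma adjusted p = 0.00517). The kinesin Kif4, the cytokinesis factor Ect2 and the spindle protein Nusap1 each differed by 0.26. Their calls were less firm: each was lost without library 1 of siRpl14 (0.20, 0.20 and 0.17) and without library 2 of siRpl18 (0.21, 0.22 and 0.25), Ect2 and Nusap1 also without library 1 of siRpl18 (0.29 and 0.26), and Ect2 without library 2 of siRpl14 (0.32).

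**Figure D4:**
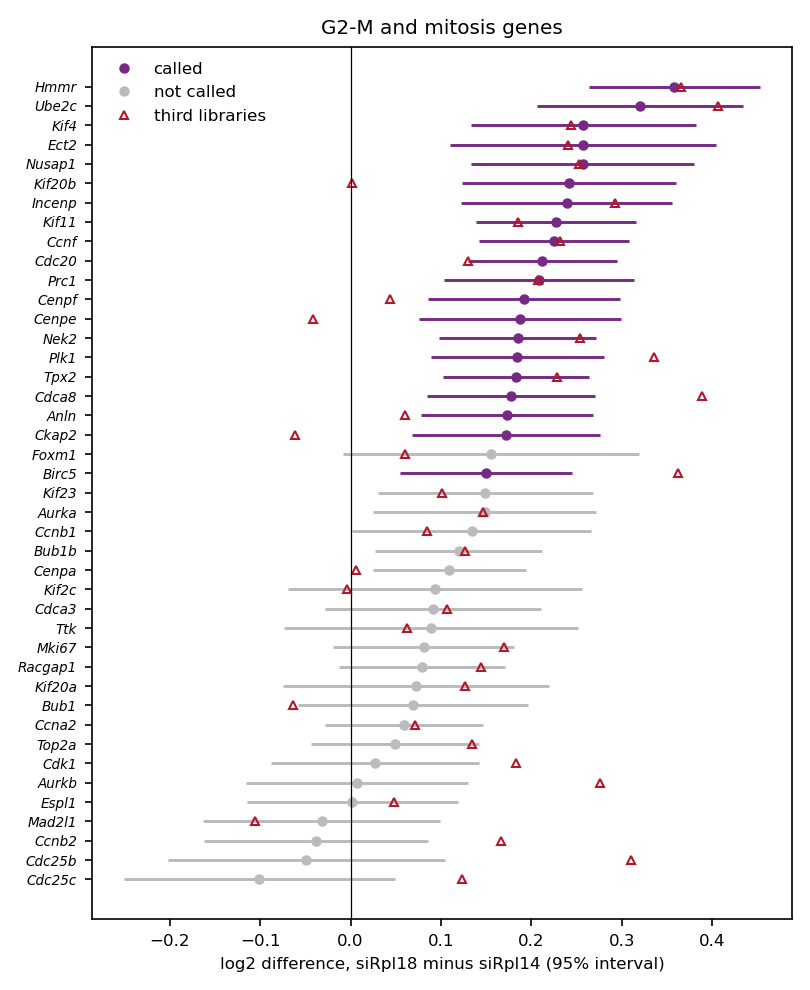
Log2 difference (siRpl18 minus siRpl14) with its 95% interval for the 42 tested genes of the G2-M and mitosis list, in order of size. Purple circles are the 20 called genes, grey circles those not called, and red triangles the third libraries. The called genes run from Birc5 to Hmmr and all lie above 0, and 38 of the 42 circles lie above 0.

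Many genes of this class carry a cell-cycle homology region (CHR) near the start site, a short element bound by the MuvB complexes through which p53 and p21 can hold such genes down, often beside CCAAT boxes bound by NF-Y. The promoters of an example pair are shown because the motif letters can be read in them directly. RefSeq promoter windows (assembly GRCm38.p6, another build than the mm9 of the deposited tables) could be matched to 9599 of the 11954 genes tested (80.3%), each with 250 bases before and 50 after the annotated start. The 150 bases before the start are printed on the strand of the gene, 5′ to 3′, with matches to TTTGAA (or its complement TTCAAA) and to CCAAT (or ATTGG) in capitals. Ube2c lies on the plus strand at chr2:164769779-164769928 and Ect2 on the minus strand at chr3:27153879-27154028.
Ube2c: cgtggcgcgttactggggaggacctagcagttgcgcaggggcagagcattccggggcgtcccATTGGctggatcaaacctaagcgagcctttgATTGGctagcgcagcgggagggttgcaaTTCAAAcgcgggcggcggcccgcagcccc
Ect2: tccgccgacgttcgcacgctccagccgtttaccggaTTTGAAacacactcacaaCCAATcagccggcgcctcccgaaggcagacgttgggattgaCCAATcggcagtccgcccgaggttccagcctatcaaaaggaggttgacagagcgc
The CHR letters begin 29 bases before the start in Ube2c and 114 bases before it in Ect2, for which RefSeq lists another start as well. TTTGAA on either strand was found in 27 of the 35 matched promoters of the G2-M list (77.1%) in 14 of the 18 matched promoters of its called members (77.8%) and in 13 of the 17 of its members not called (76.5%), against 14.2% of all matched promoters. CCAAT on either strand was found in 82.9% of the list and in 43.8% of all. Among all genes called higher in siRpl18, 19.7% of matched promoters held TTTGAA (17.9% outside the G2-M list), and among those called lower 11.6% did. A match describes letters in this window and is not a measured binding site. The 2 motifs can overlap by at most 1 base.

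Genes of the G1-S transition and DNA replication had calls in both directions: of 48 tested, 2 were higher and 3 lower (10.4%), and the list median was -0.04. Cyclin D1 (Ccnd1) differed by 0.21 (range 0.15 to 0.27) and the ribonucleotide reductase subunit Rrm2 by 0.20 (range 0.17 to 0.23), whereas cyclin D3 (Ccnd3), Cdk2 and the replication-coupled methylation factor Uhrf1 differed by -0.13 (range -0.13 to -0.12), -0.18 (range -0.21 to -0.15) and -0.19 (range -0.25 to -0.14). Leaving out 1 library at a time gave 0 to 1 higher and 0 to 2 lower. In the Myc network 1 of 11 genes passed (9.09%), the Max partner Mxd4 (-0.41, range -0.45 to -0.36), a call lost whenever 1 library was left out.

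Ribosomal protein genes other than the targets did not pass the test. limma called none of 47 untargeted 60S genes and none of 34 tested 40S genes. Some alternatives called a few members, Rpl13a among them: after quantile normalization 1 of the 60S genes was higher and 2 lower and 1 of the 40S genes was higher. At an unadjusted p under 0.05, 2 of the 60S genes were lower and none higher, and no 40S gene was in either direction. The largest differences were 0.20 in Rpl13a and 0.12 in Rps28, with list medians of 0.02 and 0.04. Among 66 tested genes of ribosome biogenesis, 4 were higher and 1 lower (7.58%, 1 to 3 higher and 0 to 2 lower on leaving 1 out), and the list median was -0.02. Utp20, a component of the small-subunit processome, read 68.5, 68.7 and 72.1 FPKM in siRpl14 and 79.2, 80.4 and 80.003 FPKM in siRpl18 (0.21 ± 0.04, SE, limma adjusted p = 0.00765), with siNT at 45.3, 43.3 and 45.1. Nop58, Ddx56 and Sbds, a box C/D core protein, an RNA helicase and a 60S maturation factor, differed by 0.21 (range 0.18 to 0.25), 0.20 (range 0.18 to 0.22) and 0.18 (range 0.11 to 0.24), and Nolc1, a nucleolar chaperone, by -0.14 (range -0.19 to -0.09). Of 36 translation factors (5.56%, 0 higher and 1 lower on leaving 1 out), Eif1 (0.19, range 0.17 to 0.21) and the eIF3 subunit Eif3b (-0.23 ± 0.03, SE, limma adjusted p = 0.00441) passed, in opposite directions. Of 13 host genes of small nucleolar RNAs, 2 were lower (15.4%), a share near that of all genes. These were Snhg4 (-0.29, range -0.34 to -0.23) and Snhg5 (-0.24), and both lost the call in the fit of all 15 libraries (adjusted p = 0.0857 and 0.117).

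Genes of protein breakdown and energy supply passed in small numbers. None of 34 proteasome genes passed (1 was lower after quantile normalization), with 1 higher and 5 lower at an unadjusted p under 0.05, and the largest difference was in the immunoproteasome subunit Psmb9 (-0.39, adjusted p = 0.0759). Of 78 mitochondrial ribosomal protein genes, 5 were higher and 1 lower (7.69%, 0 to 2 higher and 0 to 1 lower on leaving 1 out), and the list median was 0.01. None was higher when only the 4 libraries of the 2 groups were fitted. Of 76 genes of oxidative phosphorylation (3.95%, 0 higher and 1 to 2 lower on leaving 1 out), 3 were lower (Ndufs3, Sdha and Atp5g3, by -0.24 (range -0.27 to -0.20), -0.24 (range -0.30 to -0.18) and -0.20 (range -0.22 to -0.17)) and none was higher. After quantile normalization 1 was higher and 6 lower, and after median-ratio scaling 2 were higher and 3 lower. Of 30 genes of glycolysis and the hypoxia response, 2 were lower (6.67%), Hk1 (-0.26, range -0.31 to -0.22) and Pfkl (-0.21, range -0.27 to -0.15). At an unadjusted p under 0.05, 11 were lower and none higher, and the list median was -0.14. Leaving out 1 library at a time gave 0 to 1 lower, quantile normalization gave 7 lower, and the median in the third libraries was -0.04, against -0.05 over all genes tested there. The list of cholesterol and fatty acid synthesis leaned further: 8 of 31 were lower and none higher (25.8%), with a median of -0.17. The desaturase Fads2 differed by -0.35 (call lost in the fit of all 15 libraries, adjusted p = 0.181), the squalene epoxidase Sqle by -0.29 (range -0.34 to -0.23), the desaturase Scd2 by -0.28 (range -0.36 to -0.20), the sterol reductase Tm7sf2 by -0.31 (range -0.44 to -0.19) and the LDL receptor by -0.26 (range -0.31 to -0.20). Leaving out 1 library gave 1 to 4 lower, median-ratio scaling gave 1 higher and 4 lower, and the median in the third libraries was -0.03, near that of all genes.

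Stress pathways differed at single genes. Of 41 targets and members of the ATF4 pathway, 6 were higher and 3 lower (22.0%, 5 to 6 higher and 0 to 2 lower on leaving 1 out), and the list median was -0.06. Atf4, the transcription factor of the integrated stress response, read 148, 158 and 135 FPKM in siRpl14 and 189.8, 192 and 164 FPKM in siRpl18 (0.32 ± 0.04, SE, limma adjusted p = 0.00174). Its siNT libraries held 191, 194 and 142 FPKM, so in libraries 1 and 2 siRpl18 was close to siNT and siRpl14 below it. Ppp1r15a, which encodes the phosphatase subunit Gadd34, read 28.1, 28.6 and 27.9 and 37.9, 36.3 and 32.4 FPKM (0.38 ± 0.05, SE, limma adjusted p = 0.00281). Ddit3 (Chop) read 35.7, 37.5 and 40.2 and 50.9, 58.8 and 50.7 FPKM (0.57 ± 0.08, SE, limma adjusted p = 0.00303) and Atf5 20.5, 18.8 and 34.8 and 26.8, 29.6 and 38.3 (0.50 ± 0.07, SE, limma adjusted p = 0.00327), and both lost the call in the fit of all 15 libraries (adjusted p = 0.0507 and 0.0579). Asparagine synthetase (Asns) went the other way, at 121, 131 and 116 FPKM in siRpl14 and 98.1, 105 and 93.3 in siRpl18 (-0.32 ± 0.06, SE, limma adjusted p = 0.0105), and lost its call without library 2 of siRpl14 (-0.26) or library 1 of siRpl18 (-0.27). Of 23 genes of the unfolded protein response, 1 was higher and 3 lower (17.4%, 0 to 1 higher and 2 to 3 lower on leaving 1 out). Edem1, a lectin of the degradation pathway of the endoplasmic reticulum, differed by -0.50 ± 0.08 (SE, limma adjusted p = 0.00517), the chaperone partner Sdf2l1 by -0.39 ± 0.05 (SE, limma adjusted p = 0.00306), Herpud1 by -0.23 (range -0.29 to -0.17) and calnexin (Canx) by 0.16 (range 0.14 to 0.19). Of 25 genes of heat shock and oxidative stress (12%, 2 higher and 0 to 1 lower on leaving 1 out), 2 were higher, sulfiredoxin (Srxn1, 0.44 ± 0.04, SE, limma adjusted p = 0.000756) and heme oxygenase (Hmox1, 0.34 ± 0.05, SE, limma adjusted p = 0.00399), and Gstm1 was lower (-0.24, range -0.31 to -0.17).

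Pluripotency genes differed in both directions. Among 11 core factors, 3 were higher and 2 lower (45.5%). Sall1, a zinc-finger factor, read 66.4, 63.6 and 60.6 FPKM in siRpl14 and 87.8, 85.8 and 93.4 FPKM in siRpl18 (0.41 ± 0.05, SE, limma adjusted p = 0.00189). Sall1 in siRpl18 was close to siNT (89.6, 81.6 and 87.7 FPKM). Sox2 differed by 0.23, a call lost without library 2 of siRpl14 (0.20). Lower in siRpl18 were the RNA-binding protein gene Lin28a (151, 149 and 147 and 118, 116 and 114 FPKM, -0.35 ± 0.04, SE, limma adjusted p = 0.00189) and Dnmt3l, a cofactor of de novo DNA methylation (348, 355 and 492 and 275, 291 and 390.3 FPKM, -0.31 ± 0.05, SE, limma adjusted p = 0.00399). Of the 10 genes fixed as stem cell markers, 2 were higher and 1 lower (30.0%, 1 to 2 higher and 1 lower on leaving 1 out), with Tdgf1, the Nodal coreceptor, at 0.27 (range 0.21 to 0.34) beside Sox2 and Lin28a.

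Of 21 naive pluripotency genes, 6 were higher and 2 lower (38.1%, 4 to 5 higher and 1 lower on leaving 1 out). Klf4, a factor of the LIF-driven naive network, read 45.996, 42.8 and 49.98 FPKM in siRpl14 and 61.8, 62.9 and 83.9 FPKM in siRpl18, with siNT at 80.3, 70.2 and 64.2. Both knockdowns were below siNT in libraries 1 and 2 and siRpl14 was the lower (0.48 ± 0.06, SE, limma adjusted p = 0.002, 0.74 in the third libraries). Tet2, a 5-methylcytosine oxidase, had the same order, with 41.8, 40.3 and 26.3 FPKM in siNT, 24.5, 23.05 and 16.6 in siRpl14 and 31.9, 28.9 and 22.03 in siRpl18 (0.34 ± 0.05, SE, limma adjusted p = 0.00517). Gbx2 differed by 0.36, and its call was lost without library 2 of siRpl14 (0.24) or either library of siRpl18 (0.34 and 0.38). Tcl1 and Tfcp2l1 were the lower pair (-0.33, range -0.41 to -0.26 and -0.32 (range -0.39 to -0.26)), and Manba, a lysosomal mannosidase carried on this list, was higher (0.27 ± 0.05, SE, limma adjusted p = 0.00698). Of 16 genes of LIF and Stat3 signalling, 5 were higher and none lower (31.2%): beside Klf4 and Gbx2 these were the receptor subunit Lifr (0.24, range 0.21 to 0.28), Pim1 (0.22, range 0.18 to 0.25) and Junb (0.36, with the call lost in the fit of all 15 libraries, adjusted p = 0.0624). Leaving out 1 library at a time gave 2 to 4 higher.

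Among 22 genes of the formative and primed states, 6 were higher and 4 lower (45.5%, 4 to 5 higher and 2 lower on leaving 1 out). Beside Otx2, the Wnt effector Lef1 read 7.66, 7.37 and 6.104 FPKM in siRpl14 and 11.98, 13.3 and 9.52 FPKM in siRpl18 (0.68 ± 0.08, SE, limma adjusted p = 0.00137), with siNT at 3.41, 3.65 and 4.75. Fgf15, a ligand of the primed epiblast, read 5.92, 5.39 and 2.33 and 8.41, 8.72 and 5.34 FPKM (0.52 ± 0.07, SE, limma adjusted p = 0.00245). Here both knockdowns were below siNT (11.5, 10.9 and 8.39 FPKM). Dnmt3b, the de novo DNA methyltransferase of the epiblast, read 31.3, 29.96 and 34.3 FPKM in siRpl14 and 21.7, 21.2 and 25.2 FPKM in siRpl18 (-0.49 ± 0.04, SE, limma adjusted p = 0.000445), and siNT, at 29.8, 29.3 and 39.7, was close to siRpl14. Wnt8a, of the primitive streak, was lower too (-0.41, range -0.51 to -0.32). Over the 14 genes of DNA methylation and demethylation, 2 were higher and 3 lower (35.7%). The higher genes were Tet2 and Gadd45a, and the lower ones Dnmt3b, Dnmt3l and Uhrf1.

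Signalling pathways showed differences at ligands, receptors and targets without 1 direction. In FGF-ERK signalling, 7 of 20 were higher and 2 lower (45.0%, 3 to 6 higher and 0 lower on leaving 1 out). The feedback inhibitor Spry2 read 76.4, 72.1 and 62.5 FPKM in siRpl14 and 92.6, 99.2 and 69.7 FPKM in siRpl18 (0.36 ± 0.05, SE, limma adjusted p = 0.00208), and the phosphatase Dusp4 10.3, 9.68 and 11.7 and 14.98, 15.004 and 12.02 (0.54 ± 0.07, SE, limma adjusted p = 0.00244, with 0.04 in the third libraries and the call lost in the fit of all 15, adjusted p = 0.197). The receptor Fgfr2 was lower (-0.40, range -0.50 to -0.31). In the Wnt list, 2 of 23 were higher and 5 lower (30.4%, 2 to 3 higher and 2 to 4 lower on leaving 1 out). Wnt5a, a ligand of non-canonical signalling, read 1.14, 1.16 and 0.774 FPKM in siRpl14 and 2.34, 2.67 and 2.82 FPKM in siRpl18 (0.70 ± 0.09, SE, limma adjusted p = 0.00189), with 1.11 in the third libraries. The target gene Sp5 went the other way, at 4.599, 4.7996 and 10.3 FPKM in siRpl14 and 2.25, 2.23 and 3.25 FPKM in siRpl18 (-0.81 ± 0.09, SE, limma adjusted p = 0.00137, -1.42 in the third libraries), with siNT at 0.329, 0.5296 and 0.757. Cdx1, above, was lower as well, while Lef1 was higher, so genes of this list were found on both sides.

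Of 26 genes of Nodal, activin and BMP signalling, 4 were higher and 4 lower (30.8%, 0 to 3 higher and 2 lower on leaving 1 out). After median-ratio scaling 5 were higher and 2 lower, and in the fit of all 15 libraries 1 and 2. The Nodal inhibitor Lefty1 differed by -0.27 ± 0.04 (SE, limma adjusted p = 0.00572), a call lost in the fit of all 15 libraries (adjusted p = 0.173). The Smad partner Foxh1 differed by -0.31 (range -0.35 to -0.26), Tdgf1 by 0.27 (range 0.21 to 0.34) and Id2 by 0.24 (range 0.19 to 0.28). Foxh1 and Id2 also lost the call in the fit of all 15 libraries (limma adjusted p = 0.0883 and 0.341). Of 20 tested genes of the Hedgehog and Notch list, 3 were higher and none lower (15.0%), a share near that of all genes, and the list median was 0.06 and -0.12 in the third libraries. The 3 were Hedgehog genes. The ligand gene Dhh read 1.31, 1.08 and 1.304 FPKM in siRpl14 and 2.18, 2.66 and 2.797 FPKM in siRpl18 (0.64 ± 0.10, SE, limma adjusted p = 0.00506). The receptor Ptch1, itself a target of the pathway, read 22.9, 20.7 and 17.9 and 34.4, 32.4 and 29.3 FPKM (0.60 ± 0.08, SE, limma adjusted p = 0.00192), and 22.5, 19.5 and 22.9 FPKM in siNT, close to siRpl14. The effector Gli1, another pathway target, read 23.5, 20.6 and 25.1 and 29.8, 29.003 and 34.9 FPKM (0.40 ± 0.08, SE, limma adjusted p = 0.00956), and its call was lost without library 2 of siRpl14 (0.31) or library 1 of siRpl18 (0.38). Among 21 YAP-TEAD targets, 3 were higher and 3 lower (28.6%, 1 to 2 higher and 1 lower on leaving 1 out). Those lower were Amotl2 (-0.27 ± 0.04, SE, limma adjusted p = 0.00597), Ctgf (-0.35, range -0.38 to -0.32) and Myof (-0.19, range -0.23 to -0.16), and those higher included Amotl1 (0.43 ± 0.07, SE, limma adjusted p = 0.00665) and Ajuba (0.24, range 0.20 to 0.28).

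**Figure D5:**
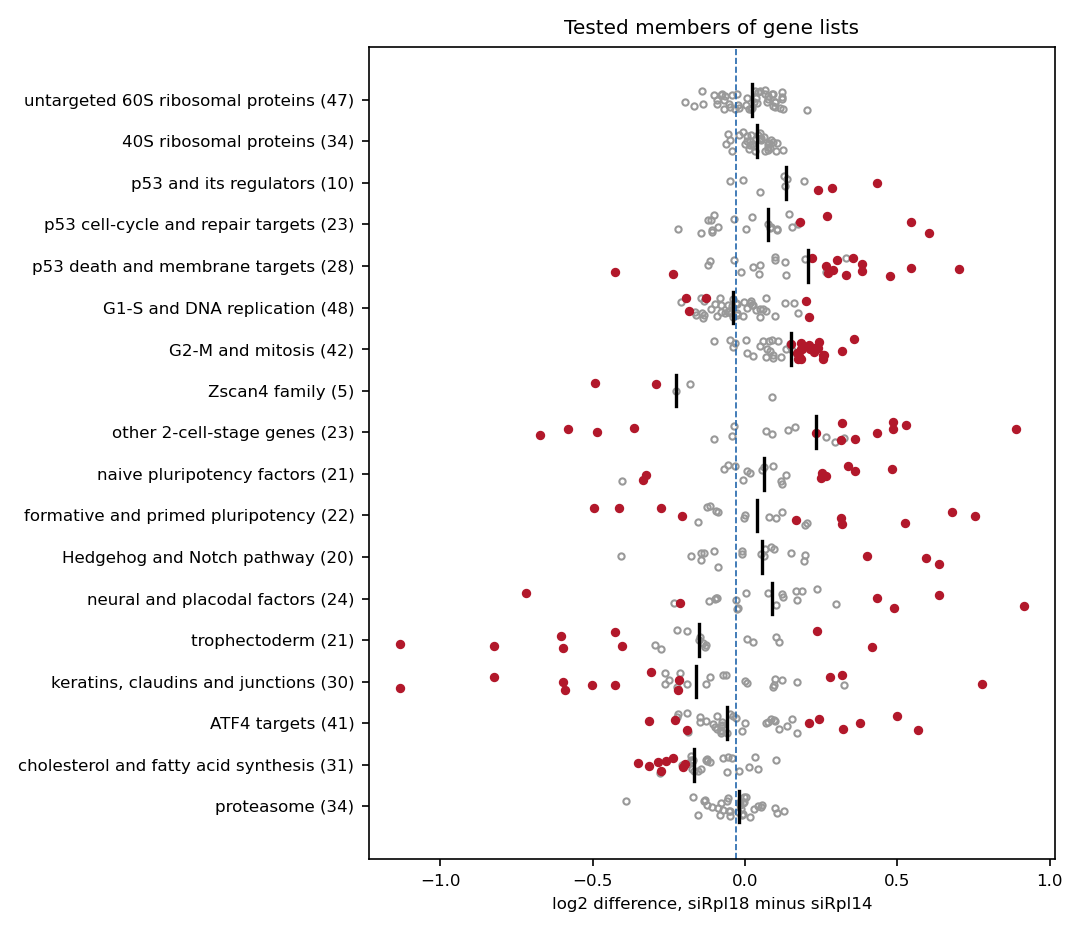
Log2 difference (siRpl18 minus siRpl14) of every tested member of 18 gene lists, with the number tested in brackets. Filled red circles were called, open grey circles were not, the black bar is the list median and the dashed line the median of all 11954 genes tested, -0.03. The G2-M list lies to the right of that line almost throughout, ribosomal protein and proteasome genes cluster at it, and the keratin and trophectoderm lists reach furthest to the left.

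Neural and placodal factors included Nkx2-9, one of the leading gains. Of 24 tested, 4 were higher and 2 lower (25%, 3 to 5 higher and 1 to 2 lower on leaving 1 out). Beside Nkx2-9, the neuroendocrine factor Insm1 read 1.64, 2.07 and 2.36 FPKM in siRpl14 and 3.58, 3.29 and 5.13 FPKM in siRpl18 (0.64 ± 0.11, SE, limma adjusted p = 0.00637), where siNT had at most 0.109. Neurod1, a proneural factor, read 30.5, 31.1 and 37.1 and 41.2, 46.3 and 37.9 FPKM (0.49 ± 0.08, SE, limma adjusted p = 0.00479). The difference was small in the third libraries (0.03), and the call was lost in the fit of all 15 libraries (adjusted p = 0.135). Nkx2-2, another ventral homeobox gene, differed by 0.43, and lost its call without library 2 of siRpl14 (0.27), library 1 of siRpl18 (0.52) or library 2 of siRpl18 (0.34). The largest loss on the list was in Nes (nestin, an intermediate filament of progenitors), at 8.86, 9.395 and 8.37 FPKM in siRpl14 and 5.32, 4.99 and 4.34 FPKM in siRpl18 (-0.72 ± 0.07, SE, limma adjusted p = 0.000704). All of its siRpl18 libraries lay below its siRpl14 libraries and above its siNT libraries (2.19, 2.15 and 3.37 FPKM).

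Epithelial and trophectoderm genes were called lower more often than higher. Of 30 tested keratins, claudins and junction genes, 9 were lower and 3 higher (40%), and the list median was -0.16, and leaving out 1 library at a time gave 6 to 8 lower and 3 to 4 higher. Cldn4, a tight-junction claudin, read 55.3, 56.98 and 88.3 FPKM in siRpl14 and 36.5, 36.97 and 59.7 FPKM in siRpl18 (-0.60 ± 0.06, SE, limma adjusted p = 0.000756). Cldn6, a claudin of embryonic epithelia, read 44.7, 44.1 and 46.8 and 27.6, 30.8 and 26.8 FPKM (-0.59 ± 0.07, SE, limma adjusted p = 0.00137), with siNT at 10.8, 11.8 and 8.03. Krt5, the basal keratin, went against the simple-epithelial pair: it read 1.395, 1.53 and 1.35 FPKM in siRpl14 and 3.34, 3.1002 and 2.67 FPKM in siRpl18 (0.78 ± 0.08, SE, limma adjusted p = 0.00103), and at most 0.0839 FPKM in siNT. Among 21 trophectoderm genes, 6 were lower and 2 higher (38.1%, 0 to 2 higher and 4 to 5 lower on leaving 1 out), and the list median was -0.15 and -0.29 in the third libraries. This list shares members, Krt8, Krt18 and Cldn4 among them, with the one before it, so the 2 are not separate observations. Cdx2, the lineage factor of trophectoderm, was low throughout, at 1.54, 2.12 and 1.98 FPKM in siRpl14 and 0.823, 0.879 and 0.966 FPKM in siRpl18. Its difference of -0.60 ± 0.12 (SE, limma adjusted p = 0.0106) lost the call without library 2 of siRpl14 (-0.46) or library 1 of siRpl18 (-0.58).

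Of 16 primitive endoderm genes, 3 were higher and 2 lower (31.2%, 1 to 3 higher and 1 lower on leaving 1 out). Foxa2, an endoderm forkhead factor, read 0.475, 0.2398 and 0.574 FPKM in siRpl14 and 1.35, 1.09 and 1.37 FPKM in siRpl18 (0.71 ± 0.12, SE, limma adjusted p = 0.00655). Its groups did not overlap, though all 6 values are near the 1 FPKM used as the filter. The matrix protein gene Sparc went the other way, at 118, 125 and 141 and 93.7, 100.4 and 115 FPKM (-0.33 ± 0.05, SE, limma adjusted p = 0.00327). The collagen genes Col4a1 and Col4a2 differed by 0.39 (range 0.36 to 0.41) and 0.37 (range 0.32 to 0.42) and the laminin gene Lamb1 by -0.16 (range -0.18 to -0.14). Of 10 mesoderm and streak genes, 2 were higher and 1 lower (30.0%). Mesp2 (0.39, range 0.36 to 0.42) and Zeb2 (0.35, range 0.31 to 0.39) were higher and Cdx1 lower, and without any 1 library neither of the first pair was called. In these bulk libraries a larger share of cells of a kind and more RNA per cell cannot be told apart, for lineage genes as for the other groups.

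Genes of the 2-cell stage, which a small fraction of embryonic stem cells express, did not move as a block. The Zscan4 genes are near-identical copies whose reads may be shared, so they may not be separate observations. Of 5 tested, 2 were lower and none higher (40%, 0 to 1 lower on leaving 1 out), with a median of -0.23. Zscan4a, not called, lay above 0 in libraries 1 and 2 (0.09). In the third libraries all 5 were lower in siRpl18, with a median of -0.57 against -0.05 over all genes tested there. Zscan4f read 26.6, 28.1 and 15.1 FPKM in siRpl14 and 22.4, 21.99 and 10.6 FPKM in siRpl18 (-0.29 ± 0.07, SE, limma adjusted p = 0.0231), and Zscan4b 19.3, 15.8 and 6.91 and 13.5, 10.9 and 3.53 (-0.49 ± 0.13, SE, limma adjusted p = 0.0324). Zscan4f lost its call whenever 1 library was left out, and Zscan4b without library 1 of siRpl14 (-0.36) or library 2 of siRpl18 (-0.35). Of 23 other 2-cell-stage genes, 9 were higher and 4 lower (56.5%), and the list median was 0.23 in libraries 1 and 2 but -0.13 in the third libraries. The 4 that were lower were all of the Usp17l family of deubiquitinases. Another tested member, Usp17lc, was not called (0.07). Sharing of reads among the members was not tested, so they may not be separate observations. Usp17la read 23.5, 23.4 and 7.56 FPKM in siRpl14 and 14.2, 14.5 and 3.72 FPKM in siRpl18 (-0.67 ± 0.07, SE, limma adjusted p = 0.00103), Usp17lb 33.7, 35.2 and 12.1 and 22.8, 22.6 and 5.81 (-0.58 ± 0.10, SE, limma adjusted p = 0.00647) and Usp17le 37.5, 40.1 and 11.4 and 26.6, 28.3 and 7.53 (-0.49 ± 0.07, SE, limma adjusted p = 0.00388). In all 3 genes siRpl18 was lower within each table, while the third libraries read lower throughout, siNT included.

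Among the higher genes, Tdpoz3, a member of a multicopy family expressed in early embryos, read 8.75, 8.31 and 3.66 FPKM in siRpl14 and 18.4, 15.04 and 3.28 FPKM in siRpl18. It differed by 0.89 ± 0.11 (SE, limma adjusted p = 0.00169) in libraries 1 and 2 and by -0.12 in the third, and the call was lost in the fit of all 15 libraries (adjusted p = 0.17). Arg2, an arginase, behaved alike, with 0.53 in libraries 1 and 2 and -0.26 in the third (adjusted p = 0.222 over all 15). Leaving out 1 library at a time gave 4 to 5 higher and 3 to 4 lower of the 23, and the fit of all 15 libraries 1 higher and 3 lower. Of 24 known repressors and activators of the state, 5 were lower and none higher (20.8%). The counts depended on the scaling, with 1 higher and 1 lower after median-ratio scaling and 1 higher and 2 lower after quantile normalization. The 5 were the chromatin regulators Setdb1 (-0.16, range -0.19 to -0.12), Ehmt2 (-0.18, range -0.23 to -0.13), Uhrf1 (-0.19, range -0.25 to -0.14), Pcgf6 (-0.23, range -0.25 to -0.21) and Smchd1 (-0.19, range -0.23 to -0.16), and leaving out 1 library gave 0 to 1 lower.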

How the data were processed

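The authors deposited FPKM values per gene. The submitters' processing notes name STAR, Cuffnorm and the build mm9, and the sources used here give neither versions nor the annotation nor how Cuffnorm scaled the libraries, so a shift common to most transcripts of a group may have been scaled away. The kit kept strand and selected mRNA, per the labels' protocols. One table holds replicates 1 and 2 of all 5 groups (10 libraries) and a second the third libraries (5). A further 2 columns of the first table match no sample of the series and were not used.

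From the FPKM values, log2(FPKM + 1) was modelled in limma 3.58.1 (R 4.3.3), by lmFit with a term for each group over the 10 libraries (5 residual degrees of freedom), contrasts.fit and eBayes with trend. P-values were adjusted by Benjamini-Hochberg over the 11954 genes at 1 FPKM or more in 2 or more of the 6 libraries, and called below 0.05. This scale understates changes of low genes. The procedure was run on simulated data with independent normal noise of the fitted size. That run does not cover effects shared between libraries. The genes, groups and 44 gene lists were chosen with earlier results of these data known, so list counts and medians are descriptions without a test of the list.

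Genes are named by rule: the targets and their neighbours, the 15 leading called genes in each direction with a mean of 5 FPKM or more in the higher group and the same direction in the third libraries, up to 5 called members of each list (or, where none was called, the largest), every p53 regulator, and 12 genes on opposite sides of siNT. Predicted genes were left out of the leading sets. Alternatives covered the pseudocount, the filter, scaling, the libraries fitted, a replicate term and leaving out each library. No reference of the build mm9 was used, and the siRNA sequences are not shown. Results for a few genes picked by the naming rule are not reported here.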

Additional observations from a re-analysis of the deposited data

How the results depend on the processing

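The limits are few libraries and unknown depth: 2 libraries per group carry the tests, the third libraries are normalized apart, and FPKM gives no counting error. Over the alternatives tried, 1 of the 1773 called genes changed sign, Magohb in the fit of all 15 libraries. Without 1 library, 282 to 398 genes were higher and 307 to 463 lower, with 4 to 7 higher and 4 to 6 lower by 2-fold or more. The cause was not tested, but each such fit has 1 sample fewer. Fitting only the 4 siRpl14 and siRpl18 libraries gave 456 higher and 525 lower, with fewer samples. Fitting all 15 libraries with the table as a term gave 550 and 1066. The counts by 2-fold or more depend on the pseudocount by construction: 23 higher and 16 lower at 0.1, and 10 and 8 at 0.5. Higher by that size were 3 genes with no filter, 3 with a filter at 5 FPKM and 9 after quantile normalization, and lower were 2 after median-ratio scaling; the cause was not tested. A filter over the 4 libraries of the first table, chosen after seeing the data, gave 745 higher and 1054 lower.

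Replicate numbers were checked for pairing: deviations of libraries 1 and 2 from their group means correlated between siRpl14 and siRpl18 with r of 0.254, and between other pairs of groups with -0.189 to 0.211, and 5 of the 10 pairs exceeded 0.1. The labels give no shared batch or day for a number, so the numbers were not taken to pair the libraries, though the values do not settle it. With the replicate block, 1060 genes were higher and 1553 lower, 21.9% of those tested. With it 4 of 47 untargeted 60S genes were higher and 5 lower, and 3 of 34 genes of the 40S list were higher. Of 34 proteasome genes 2 were higher and 4 lower. None of these had been called without the block, and no list share exceeded that of all genes with it.

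In 5 genes that did not pass the test the sign turned, and the cause was not tested. Usp7 was 0.0321 after median-ratio scaling and ran from -0.0426 to 0.0323 with 1 library left out, being 0.0306 without siRpl18 replicate 2. With all 15 libraries Rpl11 was -0.0094 and Rpl23 -5.47e-05. With 1 library left out, Rpl11 ran from -0.04996 to 0.134, Rpl23 from -0.0562 to 0.107, Hexim1 from -0.00438 to 0.1004 and Sphk2 from -0.0528 to 0.0633.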

Other observations

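Imprinted, germline and immune genes were not part of the comparisons above. Of 23 tested imprinted genes, 2 were higher and 4 lower in siRpl18 (26.1%, 1 higher and 2 to 3 lower on leaving 1 out). The maternally expressed noncoding RNAs Rian and Mirg, which lie in the same imprinted cluster, were both lower: Rian read 39.1, 37.3 and 49.8 FPKM in siRpl14 and 26.6, 25.002 and 35.8 FPKM in siRpl18 (-0.55 ± 0.05, SE, limma adjusted p = 0.000756), with siNT at 26.7, 28.2 and 42.05. Mirg read 10.2, 8.41 and 8.799 and 6.25, 5.84 and 6.903 FPKM (-0.55 ± 0.09, SE, limma adjusted p = 0.00667). In the third libraries it differed by -0.31. Peg13, at about 1 FPKM, differed by -0.28 (range -0.33 to -0.23). Cdkn1c, which encodes the cyclin-dependent kinase inhibitor p57, was higher at 18.8, 17.5 and 25.4 and 23.7, 25.1 and 25.7 FPKM (0.41 ± 0.05, SE, limma adjusted p = 0.00244), but the third libraries differed by 0.01.

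Of 27 germline and meiosis genes, 6 were higher and 2 lower (29.6%, 2 to 3 higher and 1 to 2 lower on leaving 1 out). Rec8, the meiotic cohesin subunit, read 9.07, 8.798 and 7.49 FPKM in siRpl14 and 5.69, 5.79 and 4.32 FPKM in siRpl18 (-0.56 ± 0.06, SE, limma adjusted p = 0.00107), and siRpl18 was close to siNT in libraries 1 and 2 (5.49, 5.73 and 2.37 FPKM). Taf7l, a germ cell TFIID subunit, differed by 0.58 (range 0.48 to 0.68), Tex11 by 0.39 (range 0.35 to 0.42), the meiotic factor Meioc by 0.30 (range 0.25 to 0.35) and Stra8, the retinoic acid-induced gene of meiotic entry, by -0.35 (range -0.47 to -0.23). Of 17 interferon-response genes (23.5%, 1 higher and 1 to 2 lower on leaving 1 out), Ifitm3 was higher (0.26) and Irf1 (-0.40, range -0.46 to -0.33), the RNA sensor gene Ddx58 (-0.28, range -0.28 to -0.27) and B2m (-0.42) were lower. B2m, a part of class I antigen presentation, differed by 0.05 in the third libraries, and it and Ifitm3 lost the call in the fit of all 15 libraries (adjusted p = 0.163 and 0.0953). Of 21 immediate-early genes, 5 were higher and 2 lower (33.3%, 2 to 4 higher and 0 to 1 lower on leaving 1 out). Atf3 read 2.902, 3.82 and 4.35 FPKM in siRpl14 and 4.68, 6.29 and 6.35 FPKM in siRpl18 (0.57 ± 0.13, SE, limma adjusted p = 0.0196), with the call lost without library 1 of siRpl14 (0.42) or library 2 of siRpl18 (0.39). Srf, the serum response factor, was lower at 13.03, 11.5 and 13.6 and 9.602, 9.06 and 9.27 FPKM (-0.36 ± 0.07, SE, limma adjusted p = 0.00922), and lost its call on leaving out the same libraries (-0.27 and -0.32). Of 32 lysosome genes, 3 were higher and 1 lower (12.5%, 1 to 3 higher and 1 lower on leaving 1 out), with Cd63, a tetraspanin of late endosomes, at 162, 161 and 187 and 124, 137 and 129 FPKM (-0.31 ± 0.05, SE, limma adjusted p = 0.00439). None of the 3 tested fibroblast markers was called, and none had an unadjusted p under 0.05.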
